A study of Caenorhabditis elegans with 2 samples.

Results

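The cuticle collagen genes of Caenorhabditis elegans are described here by the regions that chromatin immunoprecipitation (ChIP-seq) of the transcription factor ELT-3 placed at them in young larvae. The members were chosen by name from the protein-coding genes of the WBcel235 annotation. They are 156 genes with the symbol col- and a number and 20 genes named for the mutants in which they were found (dpy, sqt, rol, lon and bli), 176 of 19973 protein-coding genes in all. The rule uses names alone, though it was set with earlier results of these data known. The name rule takes in col-99, which is known as a transmembrane collagen and not as a cuticle collagen. The other 19797 protein-coding genes stand beside the collagen genes throughout.

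The animals were whole larvae of the second stage (L2) and of both sexes, from the strain OP75, which carries unc-119(ed3) and the transgene wgIs75. In this line ELT-3 bears GFP-FLAG at its C-terminus, and the chromatin was sheared by sonication. There was 1 group of 2 biological replicates, which share every allele and the transgene. The values describe the tagged protein of 1 transgenic line in whole animals of all tissues, so that the cell type behind a region is not known, and no list from a control sample was used here.

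The cuticle is an extracellular coat that the epidermis secretes anew before each larval moult. It consists mostly of small collagens with glycine at every repeat of the triple helix, each encoded by its own short gene, which are cross-linked outside the cell. ELT-3 is a GATA factor of the epidermis, and GATA factors bind DNA through the letters GATA in the context WGATAR (W is A or T, R is A or G), of which TGATAA is a well-known form.

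The authors deposited a list of 30000 regions from each replicate and 1 from the pooled replicates, described as peaks together with background, and a short list of 33 regions that passed their irreproducible discovery rate (IDR) threshold. Each region has a summit, which is its centre in every list, and a signal value from the authors' peak caller on a scale that the files do not state. Signal values of different lists are not on 1 scale, so ranks within a list are used beside them (rank 1 is the highest). The 1000 regions with the highest signal value of a list are called high regions below, which in the pooled list means a signal value of 28.4 or more, against a median of 16.4. A region was assigned to a gene if its summit lay in the gene or in the 2000 bp upstream of its annotated start. No region at a collagen gene had a q-value under 0.05 in the pooled list, where 15 regions did, and the lowest pooled q-value at a collagen gene was 0.224, at sqt-2. Among the high pooled regions at collagen genes the q-value reached 0.825, at col-173. The word high thus stands for a rank and not for a called peak.

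Collagen genes held high regions more often than other genes did in the pooled list and, by a smaller margin, in each replicate. In the pooled list 26 of 176 collagen genes (14.8%, 95% exact interval 9.88 to 20.9) had a high region, against 4.91% of other protein-coding genes. Replicate 1 gave 15 collagen genes (8.52%, interval 4.85 to 13.7), against 5.15% of other genes, and replicate 2 gave 19 (10.8%, interval 6.63 to 16.3), against 4.92%. The collagen share was thus above that of other genes in all 3 lists, and in replicate 1 the interval includes the share of other genes. With regions under 50% GC alone the pooled share was 7.95% (interval 4.42 to 13), against 4.58%, so that the interval then includes the share of other genes. Only 3 collagen genes, col-94, col-165 and col-2, had a high region in both replicates, a count that was not made for other genes.

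**Figure D1:**
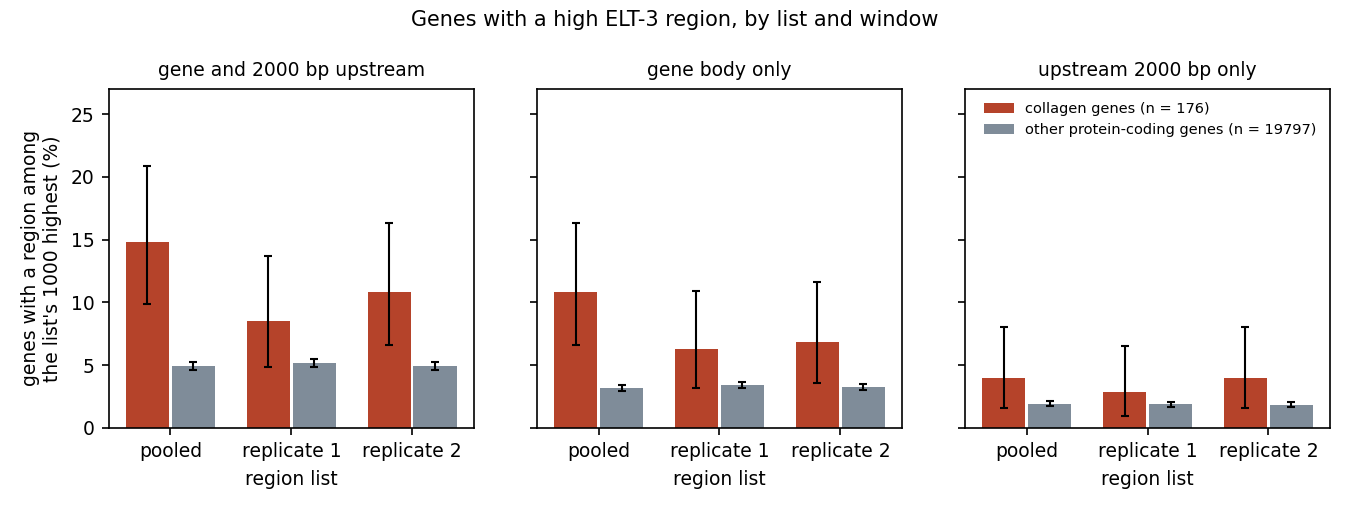
Percent of collagen genes (red, n = 176) and of other protein-coding genes (grey, n = 19797) with a region among the 1000 highest of the pooled, replicate 1 and replicate 2 lists, for the gene with 2000 bp upstream, the gene body alone and the upstream 2000 bp alone. Bars start at 0 and error lines are 95% exact intervals of the count of genes. In the pooled list the collagen genes stand at 14.8%, 10.8% and 3.98% in the 3 windows, and other genes at 4.91%, 3.2% and 1.9%.

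Most collagen genes had some region, as most genes did. A pooled region fell at 146 collagen genes (83%, interval 76.6 to 88.2), against 74.1% of other genes. In replicate 1 there were 143 (81.2%), against 74.5% of other genes, and in replicate 2 there were 145 (82.4%), against 74.5%. Collagen genes are short, with a median window of 3220 bp against 4040 bp for other genes, and per length they held 0.475 pooled regions per kb, against 0.317 per kb. The highest pooled region of the 146 genes had a median rank percentile of 77.4 (100 is the highest region), against 67.8 for other genes with a region.

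Sequences of 5 of the highest pooled regions at collagen genes are printed here, as examples of the DNA under the highest signal values. Those of sqt-2, col-165, col-75 and col-184 are coding DNA with the glycine and proline codons of collagen repeats (runs such as ggacca and ccagga), and that of lon-3 is upstream DNA. They are not a tally: regions not printed include the one of col-94, which is upstream and the second highest by pooled signal value, and over all 26 genes with a high pooled region the summit was in a coding exon at 17, upstream at 7, in an intron at 1 and in an untranslated region at 1. Each sequence is the 151 bp around the pooled summit in the WBcel235 build, taken from the RefSeq genome and written 5′ to 3′ on the strand of the gene, with WGATAR matches on either strand in capitals. The sqt-2 stretch is chrII:23839-23989 (plus strand), col-165 is chrX:4354067-4354217 (plus), col-75 is chrII:6427005-6427155 (plus), lon-3 is chrV:12199708-12199858 (minus) and col-184 is chrX:13470108-13470258 (plus).
sqt-2, coding exon: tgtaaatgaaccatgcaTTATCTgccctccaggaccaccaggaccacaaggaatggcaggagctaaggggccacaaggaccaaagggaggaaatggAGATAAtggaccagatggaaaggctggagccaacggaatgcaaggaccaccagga
col-165, coding exon: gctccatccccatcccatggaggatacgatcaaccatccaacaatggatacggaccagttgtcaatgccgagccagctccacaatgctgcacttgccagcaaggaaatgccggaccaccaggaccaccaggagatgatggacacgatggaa
col-75, coding exon: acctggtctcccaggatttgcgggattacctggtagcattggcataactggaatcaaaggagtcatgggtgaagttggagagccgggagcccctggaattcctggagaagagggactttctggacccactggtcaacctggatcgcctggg
lon-3, upstream: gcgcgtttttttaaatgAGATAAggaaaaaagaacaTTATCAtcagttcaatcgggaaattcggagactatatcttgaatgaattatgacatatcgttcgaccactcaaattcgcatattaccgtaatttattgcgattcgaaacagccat
col-184, coding exon: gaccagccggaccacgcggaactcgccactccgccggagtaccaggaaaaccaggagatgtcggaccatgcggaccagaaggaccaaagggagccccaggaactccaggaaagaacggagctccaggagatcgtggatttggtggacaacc
The sqt-2 stretch holds 2 WGATAR matches and no TGATAA. The lon-3 stretch holds 2 WGATAR matches, of which 1 is TGATAA on the other strand (TTATCA as printed). The other 3 stretches hold neither.

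The highest collagen region lay in sqt-2 (WBGene00005017), a collagen whose mutants are short and can roll about their long axis. It had a signal value of 47 in the pooled list (rank 25), 29.3 in replicate 1 (rank 18) and 16.7 in replicate 2 (rank 1209). The region was thus near the top of replicate 1 and just outside the 1000 highest of replicate 2. Its summit was 589 bp downstream of the start, in a coding exon with 52.3% GC over the region. It was the only collagen region on the IDR list, where 1 of 176 collagen genes (0.568%) stood against 0.116% of other genes. With 1 gene this share rests on a single region.

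The next regions by pooled signal value were mixed in their place and in the replicates that carried them. At col-94 the region had a signal value of 40.3 in the pooled list (rank 65), 23 in replicate 1 (rank 110) and 20 in replicate 2 (rank 341), which is the highest pair of ranks that any collagen gene had in both replicates. It lay 1847 bp upstream of col-94, inside another gene, dhc-4, and its summit was within 200 bp of the small non-coding RNA gene R07E5.16. A stretch of this region matched another place in the genome with 99% identity over 105 bp, and what part such reads had in the signal was not tested. The region in the coding exon of col-165 had a signal value of 38.5 in the pooled list (rank 90), 20.3 in replicate 1 (rank 335) and 17.8 in replicate 2 (rank 795). These were the 2 collagen genes with a high region of both replicates at the same place.

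Other regions were high in 1 replicate only. At dpy-14, a collagen whose mutants are short, the coding region stood at rank 121 in the pooled list with a signal value of 37.3, at rank 32 in replicate 1 with 26.5, and at rank 25973 in replicate 2 with 7.6. At col-56 the coding region stood at rank 76 in the pooled list (39.4), rank 87 in replicate 1 (23.7) and rank 3450 in replicate 2 (13.9). The overlapping genes col-46 and col-47 share a region that stood at rank 172 in the pooled list (35.7), rank 9235 in replicate 1 (11.4) and rank 20 in replicate 2 (29.3). It counts once for each gene, so that the 26 genes hold 25 distinct high regions. At lon-3, a collagen whose loss lengthens the body, the upstream region stood at rank 178 in the pooled list (35.6), rank 11174 in replicate 1 (10.8) and rank 178 in replicate 2 (21.8). At dpy-14 and col-56 the region was thus high in replicate 1 alone, and at col-46, col-47 and lon-3 in replicate 2 alone.

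Of the remaining genes with a high pooled region, col-60 (rank 113), col-75 (rank 170), col-184 (rank 296), col-96 (rank 346) and col-97 (rank 414) came next. The roller gene rol-8 stood at rank 418, followed by col-123 (542), col-52 (551), col-173 (629) and col-63 (645). The dauer collagen gene col-2 stood at rank 739, followed by col-62 (765), col-84 (782), col-90 (803) and rol-6 (855). The last were dpy-3 (892), col-80 (910) and col-131 (974). The gene just inside the limit was col-131, with a signal value of 28.5, and the gene just outside it was col-170, with 27.8 (rank 1133).

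Over all 26 genes, both replicates had a region within 150 bp of the pooled summit at 21, and 1 replicate had one at the other 5. At 8 genes the replicate 1 region there was itself high, at 12 the replicate 2 region was, and at 2 both were. At others neither was, as at col-60 (ranks 1508 and 4645) and col-131 (ranks 4373 and 6291). Most high pooled regions of collagen genes were therefore not high in both replicates. The same counts were not made for other genes, so that this is not shown to be particular to collagen genes.

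**Figure D2:**
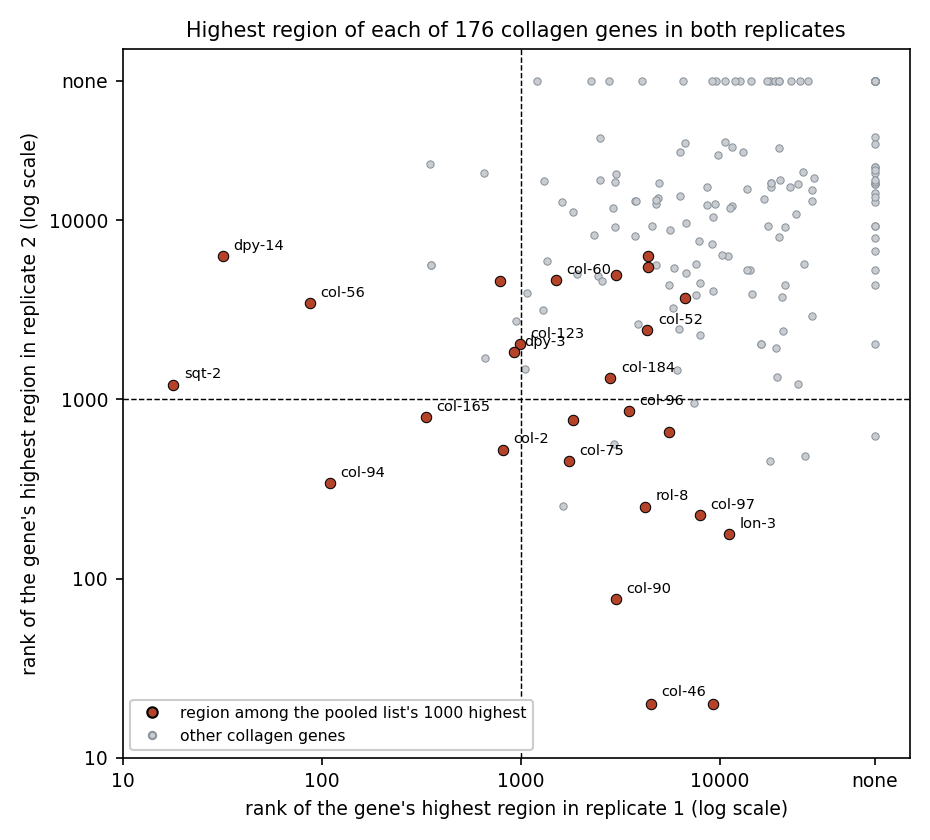
Rank of the highest region of each of the 176 collagen genes in replicate 1 (x axis, log scale) and replicate 2 (y axis, log scale), with genes that have no region at the outer edge. Red points are the 26 genes with a high region in the pooled list and dashed lines mark rank 1000. The lower left corner, high in both replicates, holds 3 genes. Red points lie in both arms beside it and also beyond both dashed lines, as at col-60 (ranks 1508 and 4645).

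Collagen genes held regions shared by both replicates more often than other genes did, and the ranks in the replicates were weakly related for both. A shared region, with a summit of each replicate within 150 bp of the other, was present at 68 collagen genes (38.6%, interval 31.4 to 46.3), against 29.4% of other genes. Under several other choices the collagen share was above but its interval included the share of other genes. With summits within 50 bp the shares were 21% (interval 15.3 to 27.8) and 16.1%. In the gene body alone they were 25% (interval 18.8 to 32.1) and 20%. The upstream 2000 bp alone, upstream limits of 1000 and 5000 bp and the mutant-named genes alone gave the same. Under the remaining choices, save the last one given below, the interval lay above that share. With both summits among the 5000 highest of their lists there were 14 collagen genes (7.95%), against 2.62% of other genes. With both among the 1000 highest there were 2 (1.14%), against 0.288%. This last share rests on 2 genes, and its exact interval includes the share of other genes. Across the 124 collagen genes with a region in both replicates, Spearman's rho of the highest region's rank was 0.22, and across 11978 other genes it was 0.195. These correlations are across genes of the same 2 libraries and are given as a description.

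In the pooled list the difference from other genes was larger within the collagen genes than upstream of them. For high regions the replicates did not both show this. In the gene body alone 19 collagen genes (10.8%, interval 6.63 to 16.3) had a high pooled region, against 3.2% of other genes. In the upstream 2000 bp alone, a window of equal length for every gene, 7 had one (3.98%, interval 1.61 to 8.02), against 1.9% of other genes. The lower end of the upstream interval is below the share of other genes. Pooled regions lay at 0.601 per kb in collagen gene bodies, against 0.337 per kb in those of other genes, and at 0.381 per kb upstream of collagen genes, against 0.283 per kb. In replicate 1 a high region fell in the gene body of 6.25% of collagen genes (interval 3.16 to 10.9), against 3.41% of other genes, and upstream of 2.84% (interval 0.929 to 6.5), against 1.88%. In replicate 2 the gene body gave 6.82% (interval 3.57 to 11.6), against 3.23%, and upstream gave 3.98% (interval 1.61 to 8.02), against 1.85%. In replicate 2 the ratio to other genes was thus about the same in both windows, and in replicate 1 both intervals include the share of other genes. For the share of genes with any region the order was the other way in the replicates, in gene bodies of unlike length (median 1220 bp against 2040 bp). Gene bodies with a region were 55.1% of those of collagen genes and 55% of those of other genes in replicate 1, and upstream windows with one were 56.2% and 44.8%. The gene-body shares were 60.2% and 54.1% in replicate 2, and the upstream shares 59.7% and 45.8%. Per length the difference was larger in gene bodies in both replicates, as in the pooled list. Replicate 1 had 0.544 and 0.337 regions per kb in gene bodies, and 0.378 and 0.282 upstream. Replicate 2 had 0.555 and 0.332 per kb in gene bodies, and 0.403 and 0.291 upstream.

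Along the genes, the density of pooled summits was highest from 500 to 749 bp downstream of the collagen starts, at 0.869 per kb, well inside genes whose median length is 1220 bp (2040 bp for other genes). In the last 250 bp before the start, where a promoter would lie, the density was 0.5 per kb. Other genes stayed between 0.262 and 0.35 per kb over the same span. In replicate 1 the collagen density was also highest from 500 to 749 bp, at 0.731 per kb, and in replicate 2 from 750 to 999 bp, at 0.68 per kb.

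**Figure D3:**
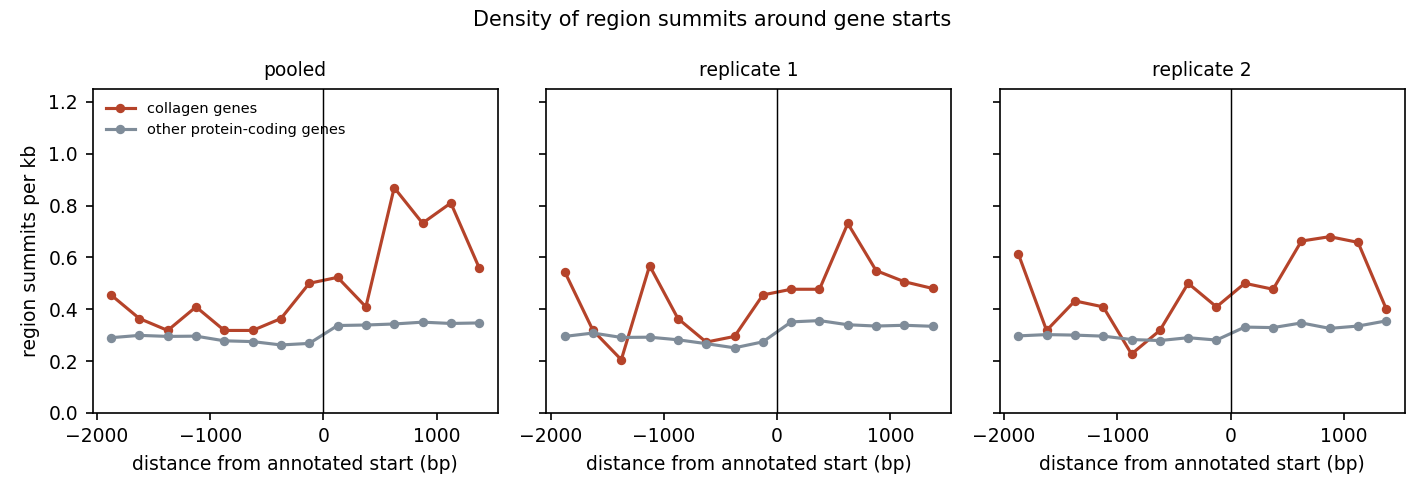
Region summits per kb in bins of 250 bp around annotated gene starts (x axis, bp, negative is upstream), for collagen genes (red) and other protein-coding genes (grey) in the pooled, replicate 1 and replicate 2 lists. Bins downstream of the start count only genes long enough to reach them. The red line rises to 0.869 per kb inside the genes in the pooled list, while the grey line stays between 0.262 and 0.35 per kb.

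The windows of the collagen genes held 276 distinct pooled regions, of which 122 (44.2%) had their summit in a coding exon, 120 (43.5%) upstream, 25 in an intron and 9 in an untranslated region. In coding exons 17 of 122 were high (13.9%, interval 8.33 to 21.4), against 3.41% of coding-exon regions of other genes. Upstream 7 of 120 were high (5.83%, interval 2.38 to 11.6), against 3.43%. The upstream classes are unlike, here and for the GC content and TGATAA values below. A collagen region was placed by the collagen genes alone, so that it counts as upstream even inside another gene. A region of other genes counts as upstream only if it lay inside none of them (17.7% of their regions). Of the high upstream collagen regions, that of col-173 alone lay inside no other protein-coding gene. The coding-exon share in replicate 1 was 9.35% at collagen genes and 3.85% at other genes, and in replicate 2 it was 8.49% and 3.7%. Upstream the shares were 3.28% and 2.86% in replicate 1, and 5.51% and 3.47% in replicate 2.

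Base composition moved with this result. Collagen repeats are rich in glycine and proline codons, and the collagen genes had a median GC content of 49.1% (range 36.5 to 60.4), against 36.4% in other genes. Coding-exon regions of collagen genes had a median of 53.7% GC, against 40.6% for those of other genes, while upstream regions had 37.9% and 36.6%. Regions of 55% GC or more were 19.2% of collagen regions, against 0.561% of regions of other genes. The pooled list as a whole had a median of 38.6% GC and its 1000 highest regions 41.4%, and the 25 high collagen regions had 49.4%.

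Among the regions of other genes, the share that was high grew with GC content, and that of collagen regions lay above it in each of the 6 GC classes of the pooled list. Below 35% GC 4.55% of collagen regions were high, against 1.66% of those of other genes. From 50 to 55% GC the shares were 15% (interval 5.71 to 29.8) and 6.44%, and at 55% GC or more 11.3% (interval 4.27 to 23) and 7.69%. In each of the 6 classes the collagen interval includes the share of other genes. By class the replicates did not repeat this order throughout. In replicate 1 the collagen share was below that of other genes from 40 to 45% GC (2% and 4.4%) and from 45 to 50% GC (2.86% and 5.75%). In replicate 2 it was below under 35% GC (0% and 1.67%) and from 45 to 50% GC (5.13% and 6.18%). Below 50% GC 7.1% of collagen regions (interval 3.84 to 11.8) were high in the pooled list, against 3.17%, but in replicate 1 the shares were 3.24% and 3.21%, and in replicate 2 they were 6.06% and 3.23%. The part of base composition in the collagen result was not tested.

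**Figure D4:**
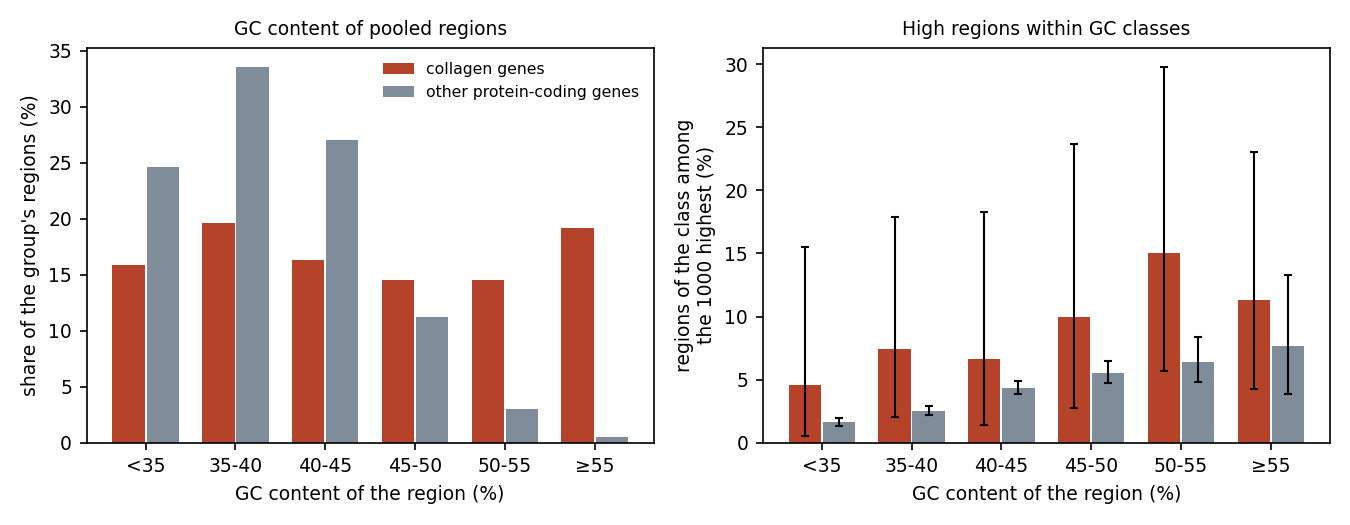
Left, share of the pooled regions of collagen genes (red) and of other protein-coding genes (grey) in each class of GC content; right, percent of the regions of each class that are among the pooled list's 1000 highest, with 95% exact intervals of the count of regions. Regions of 55% GC or more make up 19.2% of collagen regions and 0.561% of the others. The share of high regions at other genes climbs from 1.66% in the lowest class to 7.69% in the highest, and each red bar on the right stands above its grey neighbour, with intervals that include the grey value.

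GATA sites were scarce at the coding-exon regions, where most of the high collagen regions lay. TGATAA occurred within 100 bp of the summit, on either strand, in 5 of 122 coding-exon regions of collagen genes (4.1%, interval 1.34 to 9.31), against 15.9% of those of other genes. Upstream it occurred in 27 of 120 collagen regions (22.5%, interval 15.4 to 31), against 18.1% in the unlike upstream class of other genes. Over all pooled collagen regions it was 38 of 276 (13.8%, interval 9.93 to 18.4), against 16.3%. Of the 25 high collagen regions 3 had TGATAA (12%, interval 2.55 to 31.2), those at lon-3, col-84 and dpy-3. The interval includes the 19.7% of the high regions of other genes. In the replicates the share at high collagen regions was above that of other genes, at 20% and 16.2% in replicate 1 and 21.1% and 19.5% in replicate 2. The wider WGATAR, which includes TGATAA, was found at 30.1% of all pooled collagen regions and 33.8% of others. A match is a run of letters and not a shown site. TGATAA occurred 0.54 times per kb of collagen gene body, against 1.02 times per kb of other gene bodies. What part base composition had in the scarcity of sites was not tested.

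The replicates differed in the sites of upstream regions. In replicate 2 TGATAA lay within 100 bp of 40 of 127 upstream summits of collagen genes (31.5%, interval 23.5 to 40.3), against 19.4% at other genes. In replicate 1 the shares were 15.6% and 19%. Collagen genes were thus above other genes in replicate 2 and below them in replicate 1, with the unlike upstream classes described above. In the 250 bp upstream and 50 bp downstream of the start, whether or not a region lay there, TGATAA occurred at 53 collagen genes (30.1%), against 30.2% of other genes, and WGATAR at 62.5%, against 54.4%.

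Among the 20 collagens named for mutants, 6 had a high pooled region (30%, interval 11.9 to 54.3), and among the 156 numbered collagens 20 did (12.8%), beside 4.91% of other genes. In replicate 1 the shares were 25% and 6.41%, and in replicate 2 they were 10% and 10.9%, so that the replicates differ in whether the mutant-named genes stand above the numbered ones. All 20 mutant-named genes had a pooled region, and the median percentile of the highest was 85.1. The 4 genes grouped here as Rol and Sqt collagens (rol-6, rol-8, sqt-1 and sqt-2) had 3 of these high regions, at sqt-2, rol-8 and rol-6. This group was set by name and need not hold every collagen with rolling mutants. The rol-8 region had a signal value of 31.9 in the pooled list (rank 418), 13.6 in replicate 1 (rank 4226) and 20.7 in replicate 2 (rank 252). The rol-6 region had 29 in the pooled list (rank 855), and the region was lower in both replicates, at rank 6675 in replicate 1 and rank 12173 in replicate 2. At sqt-1 the highest pooled region, 484 bp upstream, had 21.7 (rank 4940).

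Of the 6 furrow collagens, which lie in the annular furrows of the cuticle, dpy-3 alone had a high pooled region, in its coding exon, with 28.8 (rank 892), 17.6 in replicate 1 (rank 924) and 15.6 in replicate 2 (rank 1833). The other furrow genes stood lower in the pooled list, dpy-7 at 19.5 (rank 8087), dpy-8 at 17.9 (rank 11076) and dpy-9 at 15 (rank 19619). The neighbours dpy-2 and dpy-10 share 1 upstream region, inside T14B4.19, with 19.3 in the pooled list (rank 8280) and 20.2 in replicate 1 (rank 354), and no region of replicate 2 lay there. In replicate 1 the high regions of the furrow genes were at dpy-3 and at dpy-2 and dpy-10 through their shared region, and in replicate 2 none of the 6 had one.

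Among the 7 other genes of dumpy, squat or long mutants, which encode collagens outside the furrows or of unstated place, dpy-14 and lon-3 had high pooled regions. At sqt-3 the coding-exon region had 23.2 in the pooled list (rank 3485) and 16.9 in replicate 1 (rank 1207), and no region of replicate 2 fell at the gene. The highest pooled regions of dpy-4 (23, rank 3666), dpy-5 (22.6, rank 3988), dpy-13 (20.5, rank 6471) and dpy-17 (20.5, rank 6506) were lower. The 3 blister collagens, which are known from the struts of the adult cuticle, had no high pooled region. Their highest pooled regions were at rank 3922 for bli-6, 7012 for bli-1 and 20415 for bli-2.

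**Figure D5:**
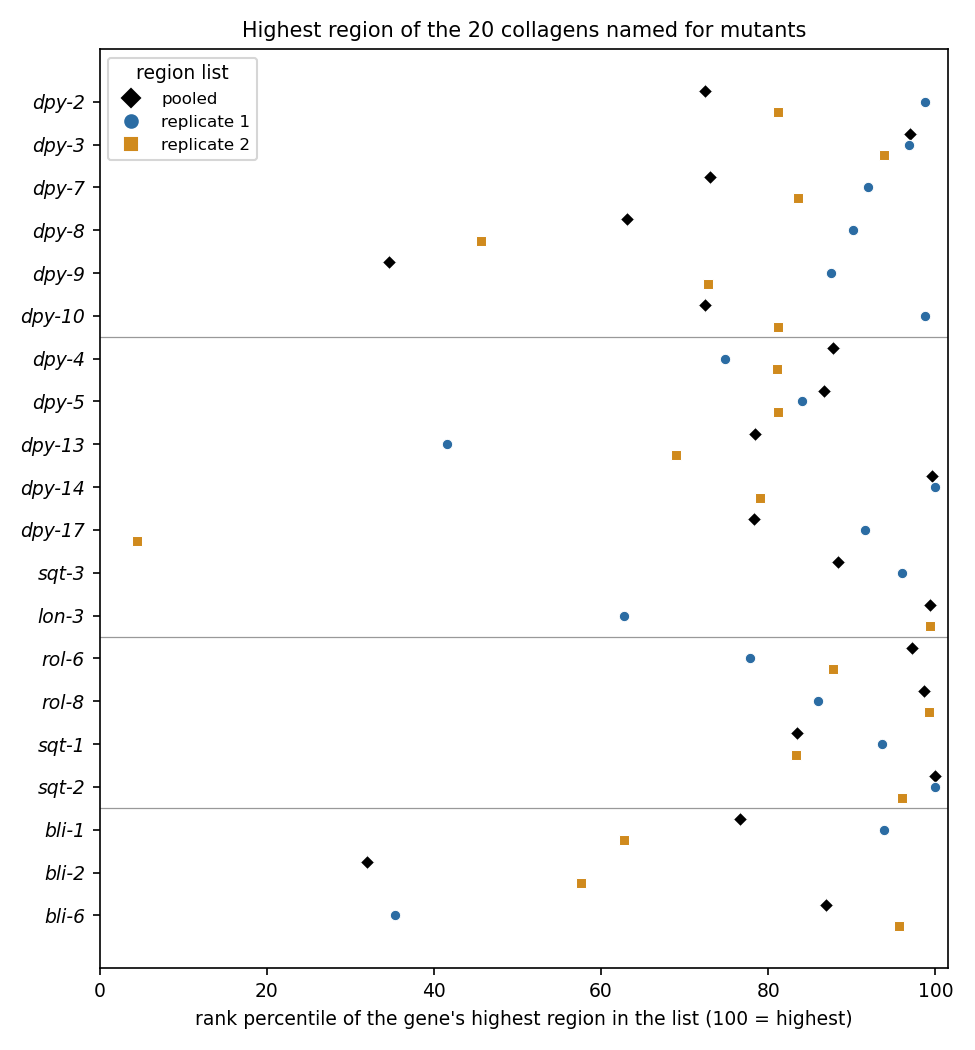
Rank percentile (x axis, 100 is the highest region of the list) of the highest region of each of the 20 collagen genes named for mutants, in the pooled list (black diamonds), replicate 1 (blue circles) and replicate 2 (orange squares); lines separate furrow collagens, other Dpy, Sqt and Lon collagens, Rol and Sqt collagens, and blister collagens from top to bottom, and a missing symbol means no region. The 3 symbols of a gene are often far apart, as at lon-3, where replicate 1 is low, and at dpy-17, where replicate 2 is low.

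The collagen genes lie on all 6 chromosomes, and the share with a high region varied among them. On chromosome I 8 of 23 collagen genes had a high pooled region (34.8%), against 11.2% of the other genes there, and on chromosome III 30.8%, against 3.77%. On chromosome II the shares were 18.8% and 4.24%, and on X 13.3% and 5.37%. On IV, which holds the most collagen genes (45), they were 6.67% and 3.46%, and on V, which holds 33, they were 3.03% and 3.06%. In both replicates the share on V was above that of other genes, at 6.06% and 3.61% in replicate 1 and 6.06% and 2.98% in replicate 2. The share on III differed between the replicates, at 7.69% of its 13 collagen genes in replicate 1 and 38.5% in replicate 2, against 4.34% and 4.76% of other genes.

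A region in a collagen window need not belong to the collagen gene. Of the 26 genes with a high pooled region, the nearest annotated protein-coding start to the summit was the gene's own at 21 and that of a collagen gene at 22. Another gene overlapped the summit at 9, among them lon-3 (ogdh-2), col-96 (Y41C4A.8), col-123 (catp-6) and col-80 (dph-2). Collagen genes resemble each other in sequence, and 16 of the 26 had a match of 100 bp or more to another place in the genome. Of these, col-94 alone had one at 90% identity or more. The best matches of col-94, of col-62 (84.2%) and of the region shared by col-46 and col-47 (89.8%) lay outside collagen genes. The best matches at dpy-14 and col-165 were at 81.5% and 83.1%.

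Genes that process and cross-link collagen were read beside the collagen genes. Of 12 such genes 3 had a high pooled region (25%, interval 5.49 to 57.2), beside 4.91% of genes outside the collagen set, and 2 did in replicate 1 and 1 in replicate 2. The 3 are phy-2, a prolyl 4-hydroxylase subunit (31.4, rank 478), bli-4, a proprotein convertase (30.5, rank 583), and pdi-2, a protein disulfide isomerase (28.8, rank 908). The dual oxidase gene bli-3, which makes the oxidant for tyrosine cross-links, had rank 1376 in the pooled list, rank 5312 in replicate 1 and rank 39 in replicate 2. The prolyl 4-hydroxylase subunit gene dpy-18 stood at rank 18357 in the pooled list. Of 4 collagen genes outside the cuticle, emb-9, a type IV basement membrane collagen, had a high pooled region (35.9, rank 163, with rank 629 in replicate 1 and 1225 in replicate 2). The other type IV chain, let-2, stood at rank 4987 in the pooled list, 8691 in replicate 1 and 329 in replicate 2. In each replicate 2 of the 4 had a high region (50%, interval 6.76 to 93.2). These were emb-9 and mec-5 (rank 745) in replicate 1, and let-2 and cle-1 (rank 382) in replicate 2. These genes are longer than most cuticle collagen genes, and so are their windows. The median window was 6993 bp for the 12 and 10155.5 bp for the 4, against 4040 bp for the genes outside the collagen set. In the upstream 2000 bp alone, of equal length for every gene, 0 of the 12 had a high pooled region (interval 0 to 26.5), against 1.9%. The same window gave 0 of the 4 (interval 0 to 60.2).

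At the other end, 121 of 176 collagen genes had a region in the pooled list and in both replicates' lists, and 12 had none in any of the 3. These counts were not made for other genes. The 12 are col-12, col-20, col-55, col-73, col-78, col-122, col-126, col-137, col-138, col-155, col-157 and col-162. A gene with no region in these lists had no summit among 30000 and is not shown to lack ELT-3. The long gene col-99 had 8 pooled regions, the highest at rank 6728. By the limit of 5000 in both replicates, col-36 joins the genes with a shared region, at rank 2546 in replicate 1 and 4589 in replicate 2, 144 bp apart, while its highest pooled region stood at rank 9284.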

How the data were processed

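ChIP-seq of ELT-3 was deposited for 2 replicates of 1 group, per the labels. The authors deposited lists of 30000 regions for each replicate and for both pooled, and an IDR list of 33. The signal value is the authors' own score per region, of unstated scale, and served here for ranks inside each list. The authors deposited q-values as −log10 of q. Neither the labels nor the files read here give the aligner, peak caller or IDR threshold (not given in the sources used here), and library depth is unknown.

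The members and lists were chosen with earlier results of these data known. The ce11 lists were used with Ensembl release 115 gene models and the RefSeq WBcel235 genome. The lists in ce10 were not used. Each share is given with a 95% exact (Clopper-Pearson) interval, which covers the counting of genes or regions only. No test between conditions was possible with 1 group, and windows of neighbouring genes share regions. GC content was taken over the whole region. Copies were sought with blastn 2.17.0 (E-value limit 1e-05, matches of 100 bp or more). Genes were named if they had a region of the IDR list, a high pooled region, a place among the 10 highest pooled or 5 highest replicate signal values, or a shared region among the 5000 highest of both replicates, or if they were named for mutants. Sequences were taken for the 6 highest of these not on chromosome I, and 1 of the 6 is not reported here. Other choices of window, rank limit, summit distance, site and gene list were tried. The counting steps, in Python 3.11.15 with numpy 2.4.6 and scipy 1.17.1, were tested on simulated data.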

Additional observations from a re-analysis of the deposited data

How the results depend on the processing

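Of 64 values recomputed under other choices, collagen genes stood on the same side of other genes in all but 4, all of them shares of regions with TGATAA. These turned with upstream windows only (21.3%, against 16.9% at other genes), without replicate 1 (19.6% and 17.7%), with the mutant-named genes only (19.4% and 16.3%) and with regions under 50% GC only (19.1% and 16.7%). The last choice and the gene body alone were added after seeing the data. With upstream windows only, the share with any region was 51.1%, with a high region 3.98%, with a shared region 16.5%, the median percentile 62.7 and the density 0.381 per kb. With the gene body only they were 64.2%, 10.8%, 25%, 75.9 and 0.601 per kb, and the TGATAA share was 7.05%. With the mutant-named genes only, 100% had a region and 30% a high one, the percentile was 85.1 and the density 0.498 per kb. A 1000 bp upstream limit gave 30.7% shared, 75.5 and 0.51 per kb. A 5000 bp limit gave 91.5% with any region, 47.2% shared, 79.7 and 0.406 per kb. Assigning each region to the nearest start gave 75.6%, 74.2 and 0.358 per kb, and leaving out chromosome I gave 75.2 and 0.46 per kb. The share with a high region was 7.95% for the 500 highest, 21.6% for the 2000 highest and 7.95% (interval 4.42 to 13), against 4.58%, with regions under 50% GC. Shared regions were 21% at 50 bp, 53.4% at 300 bp and 7.95% among the 5000 highest of both. WGATAR gave 30.1%, and TGATAA within 50 bp and 200 bp gave 7.97% and 23.2%. Leaving out each replicate in turn gave 81.2 to 82.4% with any region, 8.52 to 10.8% with a high region, percentiles of 77.6 to 78.9, 0.449 to 0.468 per kb and 9.89 to 19.6% with TGATAA. The cause of these shifts was not tested. No paired analysis was possible because the study has 1 group. Depth is unknown, so that how far it limits the agreement of the replicates could not be measured.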
